A study of Caenorhabditis elegans with 4 samples.

Results

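The regions described here are the GEI-11 binding regions in the centre of chromosome V of Caenorhabditis elegans, taken as every region of the combined list on V whose midpoint lay from 7000000 to 14000000 in the WormBase WS220 build. This rule used position alone and found 417 of 5999 combined regions, with 213 of 3021 in the list of ChIP replicate 1 and 259 of 3722 in that of replicate 2. Each region carries 1 value from the authors, a q value from the peak caller PeakSeq, written below as −log10 q, so that a larger number is a stronger call. The ChIP group had 2 samples and the input group 2 samples, all fed L1 hermaphrodites of strain OP179 kept at 20 °C and fixed in 2% formaldehyde. All carried the unc-119(ed3) III mutation and the transgene wgIs179, put in by bombardment. It holds unc-119(+), which restores that gene, and gei-11::TY1::EGFP::3xFLAG, a tagged copy of gei-11. No change of the gene at its own locus is listed, ChIP used an antibody against GFP, and whole larvae were lysed, so tissues cannot be told apart. The labels do not say that the replicates were separate cultures. The spread between them may therefore be technical.

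GEI-11 is listed in the RefSeq gene table as snpc-4, a DNA-binding subunit of the small nuclear RNA activating protein complex (SNAPc). SNAPc binds a sequence element upstream of small nuclear RNA (snRNA) genes and brings in the RNA polymerase that transcribes them. In this worm the protein is also known at the genes of SL1, the leader RNA spliced onto many messenger RNAs, and at the piRNA genes, whose small RNAs guard the germ line. Chromosome V carries 40 of 129 snRNA genes in that table and all 12 of 12 sls-1 genes, which encode SL1, but only 202 of 15363 piRNA genes. The table belongs to a later assembly, WBcel235, so these are counts per chromosome and do not place any gene in the centre. Which genes lie at the regions below, and their sequence, was not analysed here.

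The centre of V held a small group of very strong regions above a long run of weak ones, as did the whole list. Combined −log10 q was 50 or more in 2.88% of members, beside 2.18% over the whole list. It was under 3 in 36.5%, beside 32.7%. The 6 strongest regions of the centre had a combined −log10 q of 166 to 205, and the next stood at 110. Among all 5999 combined regions the 6 ranked from 15 to 36. All 6 were called in both replicates, at 125 to 181 in replicate 1 and 145 to 194 in replicate 2. They were the 6 strongest regions of the whole of chromosome V in each of the 3 lists, where the arms reached at most 80.6 (replicate 1), 113 (replicate 2) and 132 (combined). The arms are the regions of V outside the borders.

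The strongest member, V 8499813 to 8500799, reached −log10 q 181 in replicate 1, 194 in replicate 2 and 205 combined. It ranked 15 among all 5999. The second, V 11979450 to 11980560, had 157, 190 and 201. The third, V 12490819 to 12491550, had 144, 170 and 185. These regions were 987, 1111 and 732 bp wide, against a median of 335 bp over the 417. The fourth, V 8348776 to 8349413, had 141 in replicate 1 and 157 in replicate 2, the fifth, V 8228600 to 8229269, had 136 and 154, and the sixth, V 8247432 to 8248305, had 125 and 145. Replicate 2 was the higher for each of the 6.

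Of these 6 regions 4 lay within 272 kb of each other, between V 8228600 and V 8500799. That stretch held 24 combined regions, 13 regions of replicate 1 and 17 of replicate 2. Strongest between these 4 in the combined list were V 8230091 to 8230475 and V 8359143 to 8359486. The former had 8.77 in replicate 1 and 15.2 in replicate 2, the latter 15.5 and 8.97. Some regions of the stretch were met by neither replicate, such as V 8251251 to 8251404 and V 8407075 to 8407345, at a combined 2.76 and 2.05. This stretch was picked after the values were seen.

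**Figure D1:**
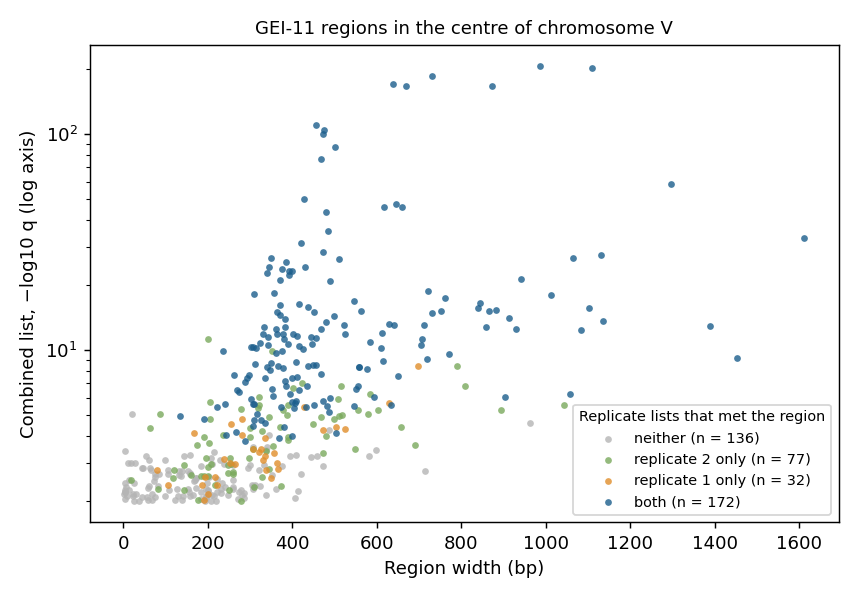
Each point is 1 of the 417 combined regions, by width in bp and by combined −log10 q on a log axis, coloured by the replicate lists that met it. The 6 strongest regions, at 166 to 205, stand apart at the top, and regions met by neither replicate, none above 5.07, gather at the lower left.

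Members ranked 7 to 20 that both replicates met ran from 110 to 31.1 in the combined list. V 11585162 to 11585637 had 58.8 in replicate 1 and 72.4 in replicate 2. V 9391907 to 9392379 had 53.1 and 68.1, and V 13162861 to 13163327 had 37.1 and 46.7. These 3 were narrow for their strength, at 476, 473 and 467 bp. V 10715070 to 10716365 was the reverse, 1296 bp wide with 22.0 in replicate 1 and 39.3 in replicate 2. V 9503302 to 9503728 had 23.6 and 35.5, and V 9789694 to 9790353 had 22.9 and 27.3. Replicate 1 gave the higher value for 2 of the 20: V 10896992 to 10897636, at 25.9 in replicate 1 and 22.4 in replicate 2, and V 11982213 to 11982692, at 22.9 and 20.7. The remaining 18 were higher in replicate 2. Weakest of the 20 were V 12497666 to 12498149, at 13.3 in replicate 1 and 23.1 in replicate 2, V 10003268 to 10004880, at 10.2 and 23.7, and V 10807887 to 10808307, at 13.9 and 18.3. Counted by block of 1 Mb, the 20 numbered 4, 3, 4, 6, 2 and 1 from the second block to the seventh, with none in the first.

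Over all 172 members met in both replicates, the median −log10 q was 4.76 for replicate 1, 5.88 for replicate 2 and 10.9 for the combined list. Replicate 2 was higher in 113 of the 172 (65.7%), and replicate 2 minus replicate 1 had a median of 0.814. The combined value exceeded both replicate values in all 172. Since depth is unknown and q values depend on it, none of these differences measures occupancy. Across the 172 regions Pearson's r between the replicates was 0.992 and Spearman's rho 0.783. Without the 6 strongest, r was 0.958 and rho 0.758 over 166 regions. These describe regions of 1 pair of libraries that share a strain and a protocol, and regions are not independent replicates.

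**Figure D2:**
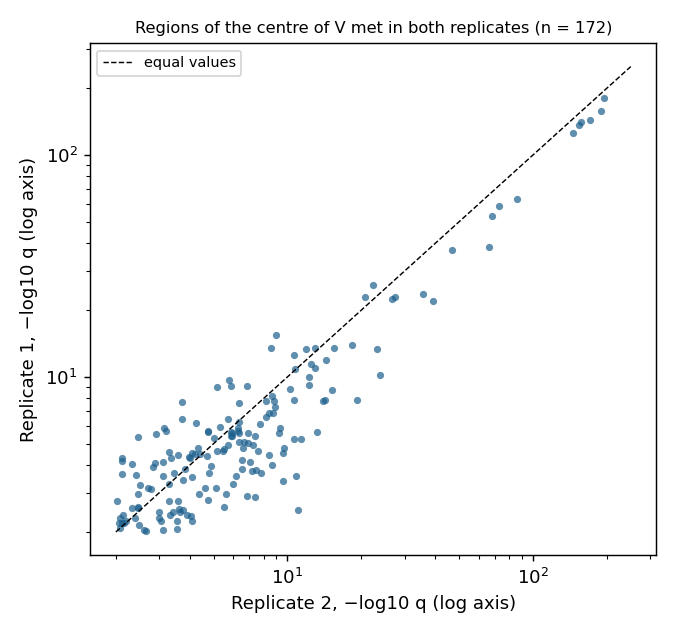
Each point is 1 of the 172 members met in both replicates, with −log10 q of replicate 2 on the horizontal axis and of replicate 1 on the vertical axis, both log axes, and a dashed line at equal values. Points lie below the line in 113 of 172, and the 6 strongest lie together at the upper right.

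Between the replicates, the midpoints of their regions in a member met by both lay a median of 31.0 bp apart. They were within 50 bp for 119 of 172 members (69.2%) and at most 573 bp apart. In 171 of the 172 the replicate regions overlapped each other. The exception, V 10246326 to 10247230, met V 10247041 to 10247231 of replicate 1 and V 10246449 to 10246678 of replicate 2, both weak at 2.09 and 2.08, and was picked after its values were seen. Set against the combined list, the midpoint in replicate 1 lay a median of 19.5 bp from the combined midpoint, and that in replicate 2 lay 21.0 bp from it. It was within 50 bp for 134 of 172 regions in each replicate, and the largest offset was 479 bp in replicate 1 and 426 bp in replicate 2. Matched regions had a median width of 354 bp in replicate 1 and 356 bp in replicate 2. The combined regions, with a median of 434 bp, were at least as wide as both in 144 cases (83.7%). In 5 members the combined region spanned more than 1 region of a replicate. One was V 10003268 to 10004880, the widest member at 1613 bp, which met 2 regions of replicate 1 and 1 of replicate 2.

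A row of 3 strong regions stood at V 11174667 to 11177086, a span of 2420 bp. The first, V 11174667 to 11175283, reached −log10 q 22.5 in replicate 1 and 26.7 in replicate 2. The middle one, V 11175551 to 11176052, had 38.3 and 66.1, and the third, V 11176630 to 11177086, had 63.3 and 85.8. Strength followed the same order, highest on the right, in both replicates and in the combined list, where the values were 45.6, 86.5 and 110 from left to right. Gaps of 267 and 577 bp separated them. It was the only row of 3 or more, with gaps of 1 kb or less, in which both replicates met every region, and it was picked after the values were seen.

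**Figure D3:**
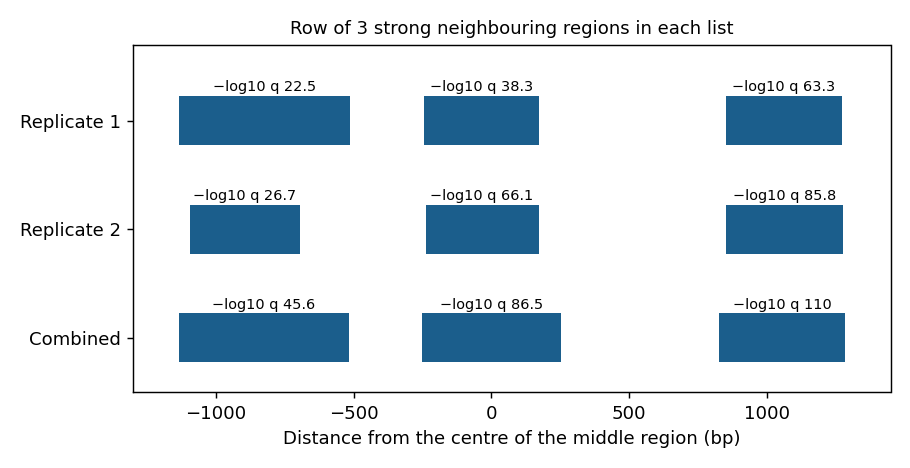
Bars show the 3 regions of this row in replicate 1, replicate 2 and the combined list, by distance in bp from the centre of the middle region, with −log10 q above each bar. The 3 regions are separate in every list, and the right-hand one is strongest in each.

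Close neighbours were found along the centre of V. Of the 417 regions, 109 (26.1%, 95% exact interval 22.0 to 30.6) had another combined region within 1 kb, edge to edge. The share was 20.4% (17.4 to 23.6) in the arms of V, 20.6% (19.5 to 21.7) in the rest of the series and 21.0% over all 5999. These shares were not tested against each other, and replicate 1 did not repeat their order. In replicate 1 the share was 12.7% in the centre, 15.6% in the arms and 13.4% over the whole list, and in replicate 2 it was 16.2%, 13.6% and 14.8%. With the combined list cut to q 1e-05 or less, so that the neighbour also had to pass, the share in the centre was 12.9%. Linking regions with gaps of 1 kb or less gave 42 pairs, 7 rows of 3 and 1 row of 4, and left 308 regions alone. In 9 of these 50 groups both replicates met every region, in 3 neither replicate met any, and 14 held a region met by both beside one met by neither. Both replicates met 40 of the 109 grouped regions (36.7%) and 132 of the 308 single ones (42.9%), beside 38.8% of all combined regions. This split was not computed over the whole list, and the difference was not tested. Median −log10 q was 3.99 in the grouped regions and 4.36 in the single ones.

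The row of 4, V 13654475 to 13659478, spanned 5004 bp. It held 2 of the 5 widest members: V 13656319 to 13657707, 1389 bp wide, where −log10 q was 4.40 in replicate 1 and 4.69 in replicate 2, and V 13658342 to 13659478, 1137 bp wide, with 7.66 and 6.32. V 13655118 to 13655837 had 5.68 and 3.20, and the leftmost of the row, V 13654475 to 13654670, was met by neither replicate. Another of the widest, V 13787340 to 13788793, was 1454 bp wide but weak, at 2.47 in replicate 1 and 3.43 in replicate 2. V 10003268 to 10004880 and V 10715070 to 10716365, also among the 5 widest, ranked 19 and 12 among the members by strength. The widest members were thus not always the strongest, though wider members tended to be stronger. Over the 417 regions Spearman's rho between width and −log10 q was 0.739 and Pearson's r 0.377, a description across regions of 1 list.

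The centre was more densely covered than the arms in each list. It had 59.6 combined regions per Mb, against 49.1 in the arms, and they covered 153 kb, 2.18% of its length, against 1.68% in the arms. Replicate 1 had 30.4 per Mb in the centre and 23.0 in the arms, and replicate 2 had 37.0 and 29.6. The ratio of centre to arms came to 1.21 for the combined list, 1.32 for replicate 1 and 1.25 for replicate 2. The borders were proposed with such densities known, so no test is given. Density over the whole genome was not computed, so these ratios cannot tell a dense centre from sparse arms.

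Within the centre the regions per block of 1 Mb were 40, 59, 54, 67, 71, 70 and 56 from left to right, or 59.6 ± 11 (SD, 7 blocks). Replicate 1 had 19, 25, 31, 36, 38, 33 and 31, and replicate 2 had 29, 39, 30, 40, 46, 36 and 39. The fifth block, 11 to 12 Mb, was highest in all 3 lists. The first, 7 to 8 Mb, was lowest in all 3. The share of members that both replicates met ran from 34.3% in the sixth block to 47.9% in the fifth.

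**Figure D4:**
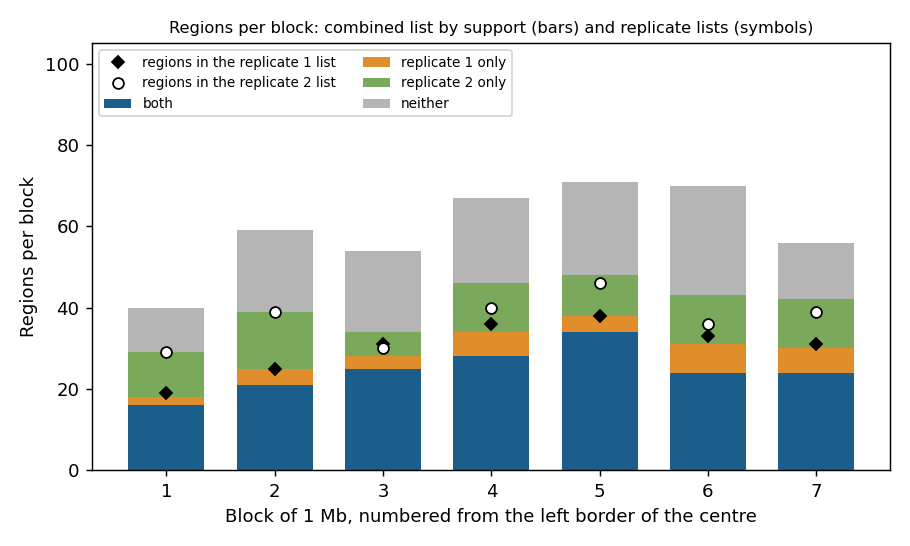
Bars give combined regions in each of 7 blocks of 1 Mb from the left border, split by the replicate lists that met them. Diamonds and circles give the regions in the replicate 1 and replicate 2 lists. The fifth block is highest, with 71 combined regions, and the first is lowest, with 40.

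At 100 kb the 70 windows held 5.96 ± 3.28 members each (SD over windows), and 12 windows with 10 or more held 135 members (32.4%). The fullest, V 10000000 to 10099999, held 14, of which 4 were met in both replicates and 6 in neither. V 11100000 to 11199999, which includes the row of 3, held 13, with 6 met in both. V 11800000 to 11899999 held 12, with 4 met in both and a highest −log10 q of 11.8. Full windows were therefore not always strong ones, and the window of the fourth strongest member, V 8300000 to 8399999, held 5. Only V 7300000 to 7399999 was empty in the combined list, and it held 0 regions in either replicate. It lay in the longest stretch without a member, V 7237496 to 7435041 (198 kb), where replicate 1 had 1 weak region and replicate 2 had 0. The next longest were V 8802622 to 8923932 (121 kb) and V 9856808 to 9970164 (113 kb), each with 0 regions of either replicate inside. Between neighbouring members the median gap was 9.09 kb.

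Both replicates met 172 of the 417 members (41.2%, 95% exact interval 36.5 to 46.1), where 38.8% of all combined regions were met in both. Replicate 1 alone met 32 (7.67%), beside 8.15% over the whole list, and replicate 2 alone met 77 (18.5%), beside 19.9%. Neither met 136 (32.6%, interval 28.1 to 37.3), beside 33.2% over the whole list. The arms of V had 245 of 682 in both (35.9%) and the rest of the series 2153 of 5582 (38.6%). The difference from the arms was 5.32 percentage points (95% Newcombe interval -0.580 to 11.3) and did not pass Fisher's exact test (two-sided, adjusted p = 0.168 over 2 tests). The difference from the rest was 2.68 points (-2.12 to 7.63) and did not pass either (Fisher's exact test, adjusted p = 0.297). These tests count regions of 1 pair of libraries as independent. With borders at 6 to 15 Mb the difference from the arms passed (7.17 points, Fisher's exact adjusted p = 0.0306), and over 9 alternatives its adjusted p ran from 0.0306 to 0.622.

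Support followed strength, as over the whole list. The combined list is named for the same ChIP, and its value exceeded both replicate values in every member met in both. Strength and support are therefore not independent. Of the 50 strongest members all 50 were met in both replicates, as were 48 of the next 50. The share was 66.0% at ranks 101 to 200, 8.00% at ranks 201 to 300 and 0 of 117 beyond. At those last ranks 92 regions (78.6%) were met by neither. By class of −log10 q, both replicates met 70.5% of members from 5 to 10 and 0% of those under 3, beside 71.3% and 0% over the whole list, so these shares were near the background. By median, members met in both stood at −log10 q 10.9 and were 434 bp wide. Those met in neither had 2.38 and 179 bp, and those met only in replicate 1 or only in replicate 2 lay between, at 3.17 and 3.96.

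Strong calls, with q at or below 1e-10, made up 98 of the 417 (23.5%), beside 18.6% in the arms and 19.7% over the whole list. Of those 98, 97 were met in both replicates, beside 127 of 127 in the arms and 1177 of 1181 (99.7%) over the whole list. The exception, V 10138742 to 10138941, had −log10 q 9.29 in replicate 2 and 11.2 combined and was not met in replicate 1. Outside this class, the next strongest members met in 1 replicate had a combined −log10 q of 9.90 to 7.06. They were V 12047710 to 12048061 (7.57 in replicate 2) and V 8936946 to 8937644 (3.31 in replicate 1). After them came V 10441127 to 10441916 (5.13 in replicate 2) and V 8178921 to 8179344 (6.84 in replicate 2). At −log10 q from 3 to 5, both replicates met 13 of 79 members (16.5%), against 8 of 149 (5.37%) in the arms, 138 of 1380 (10.0%) in the rest of the series and 10.3% over the whole list. These strength classes were chosen after the values were seen and were not tested.

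**Figure D5:**
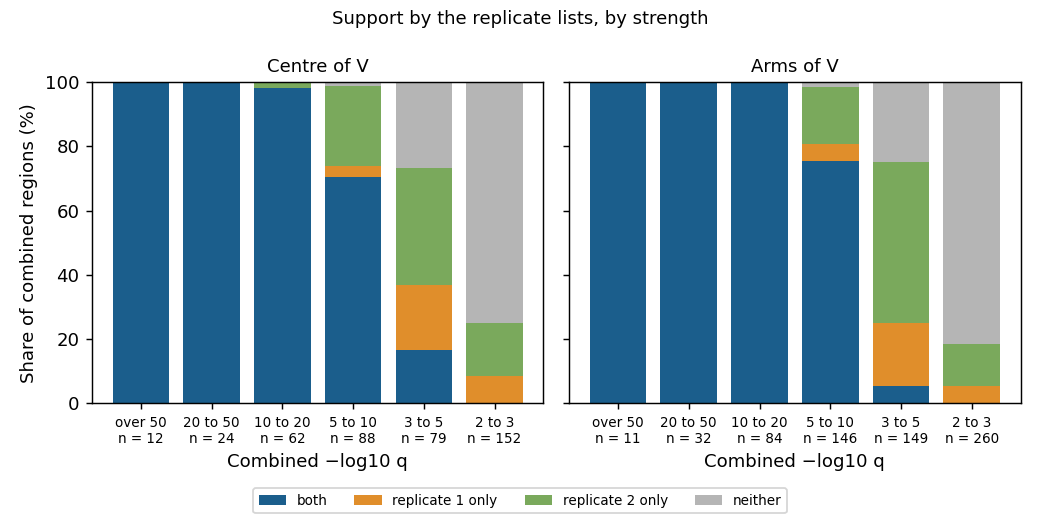
Bars give the share of combined regions, in percent, met in both replicates, in 1 or in neither, by class of combined −log10 q, for the centre of V (left) and the arms of V (right), with n below each bar. In both panels every region over 20 was met in both replicates and no region under 3 was.

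Strongest among the members met by neither replicate was V 8923933 to 8923952, only 20 bp wide, with a combined −log10 q of 5.07. V 9075503 to 9076464, 962 bp wide, followed at 4.59, then V 13907838 to 13908323 at 4.25, V 10054890 to 10055235 at 4.05 and V 9318002 to 9318308 at 3.57. All 5 ranked 182 or lower among the 417 members. V 8923933 to 8923952 and V 9075503 to 9076464 stood above the median of all members, 4.32, and the others below it.

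Seen from the replicates, 172 of 213 replicate 1 regions in the centre (80.8%, interval 74.8 to 85.8) met a replicate 2 region, beside 77.6% over that whole list. In replicate 2, 173 of 259 (66.8%, 60.7 to 72.5) met a replicate 1 region, beside 63.0%. The arms of V had 76.9% and 59.9%, and these differences were not tested. Unmet regions were the weaker ones, with a median −log10 q of 2.38 against 4.76 for met regions in replicate 1, and 2.65 against 5.88 in replicate 2.

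Nearly all replicate regions of the centre had a counterpart in the combined list, 205 of 213 in replicate 1 (96.2%, beside 94.5% over the whole list) and 252 of 259 in replicate 2 (97.3%, beside 95.6%). The strongest of the 8 without one in replicate 1 was V 9253213 to 9253219, at 2.42. The others named by the rule, V 9165369 to 9165754, V 10891395 to 10891561, V 7240296 to 7240492 and V 12897058 to 12897213, had 2.31, 2.30, 2.30 and 2.24. In replicate 2 the strongest of 7 was V 11988193 to 11988339, at 2.74, then V 7460723 to 7460816 at 2.49, V 13353472 to 13353502 at 2.45, V 11342054 to 11342080 at 2.32 and V 8425156 to 8425161 at 2.32. None of these 10 was met by the other replicate, and the regions of the centre without a combined counterpart thus stood at 2.74 or less.

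At the borders, the first member inside on the left was V 7060307 to 7060796, with −log10 q of 20.9, and the region just outside was V 6998178 to 6998668, with 2.32. On the right the last member was V 13992193 to 13992278, with 5.07, and the region just outside was V 14003686 to 14003958, with 3.02.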

How the data were processed

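Chromatin immunoprecipitation and sequencing of GFP-tagged GEI-11 gave 3 lists of regions, 1 for each ChIP replicate and 1 named combined. Per the file headers, the regions are PeakSeq calls with positions in WormBase WS220, carried over from a build that is not named. The authors deposited 1 q value for each region, at most 0.01. Not given in the sources used here are the aligner, versions, filters, the use of the inputs and how replicates were combined. The inputs had 0 lists, so no control background stands beside the values. Depth is unknown.

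Regions of different lists were matched at an overlap of at least 1 bp. Intervals of shares are exact (Clopper-Pearson, 95%) and cover counting error only. Support by both replicates was compared by Fisher's exact test, two-sided, Benjamini-Hochberg adjusted over 2 comparisons at 0.05. Python 3.11.15, numpy and scipy were used, and the steps were tested on simulated data. The members, borders and tests were chosen with earlier results of these data known. Regions named were the 20 strongest met in both replicates, the 5 strongest met in neither and in 1, the 5 widest, the 5 strongest replicate regions without a combined one, the 3 fullest windows of 100 kb and the empty ones, the 3 longest gaps and the regions at the borders. Any other region was named after its values were seen. Alternatives changed the overlap, strength, width, borders, merging, distance and list.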

Additional observations from a re-analysis of the deposited data

How the results depend on the processing

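No paired analysis was possible because only the 2 ChIP samples have lists, and the numbered inputs beside them have none here. Of 79 alternatives, 61 kept direction and call or stayed within the interval, 2 gained a call and 16 moved a value. The number of regions has no interval and was judged by a set ratio to the reported number instead. Both gained calls concern the share met in both replicates, centre of V against arms. It was 7.17 points higher in the centre with borders at 6 to 15 Mb (Fisher's exact adjusted p = 0.0306) and 7.37 points with regions within 1 kb merged (Fisher's exact adjusted p just under 0.05). A limit of q 1e-05 in every list left 186 members, with a median width of 448 bp, 38.7% met in neither replicate and 12.9% with a neighbour within 1 kb, and 86.6% of replicate 1 regions were met. Merging gave 27.9% met in neither. Neighbours within 500 bp and within 2 kb made 12.5% and 38.8%. The cause of these changes was not tested, beyond fewer regions under the q limit.

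With 1 replicate alone, 48.9% to 59.7% of members were met and 40.3% to 51.1% were not. The difference was 3.99 to 5.52 points from the arms and 1.17 to 2.16 from the rest. The replicate lists held 213 to 259 regions of the centre, of which 12.7% to 16.2% had a neighbour within 1 kb, and the density ratio was 1.25 to 1.32. How far depth limits the weak regions could not be measured.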

Other observations

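Very narrow regions were part of the combined list in the centre of V. Of its 417 regions 25 were under 50 bp (6.0%), beside 10.1% in the arms of V and 7.30% over the whole list, and the narrowest, V 8496661 to 8496662, was 2 bp. Neither replicate met 24 of the 25, and 1 was met by 1 replicate. Their −log10 q ran from 2.01 to 5.07 with a median of 2.25. Support was not computed for the narrow regions of the arms or of the whole list. The lack of support among narrow regions is therefore not shown to be particular to the centre. In the replicate lists regions under 50 bp in the centre numbered 6 of 213 and 7 of 259. At the other end, 13 members were 1000 bp or wider, and both replicates met 12 of them.

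No 2 regions of a list stood closer than 200 bp edge to edge, with smallest gaps of 201 bp in replicate 1, 200 bp in replicate 2 and 200 bp in the combined list, and 209 bp within the centre of V. Rows of neighbouring regions such as those at V 11174667 to 11177086 are thus described only down to that spacing.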
